A study of Mus musculus with 12 samples.

Results

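The genes described here encode LSD1 and the proteins that work with it as a corepressor, and they are 10 of the 21938 protein-coding genes on the chromosomes of the peak lists. They were chosen by name as known members of the LSD1 and CoREST complex or its direct recruiters: Kdm1a, which encodes LSD1, Rcor1, Rcor2, Rcor3, Hdac1, Hdac2, Hmg20b, Phf21a, Gfi1 and Gfi1b. Each was read over its gene body and the 10 kb on either side, its gene window, and the question was whether LSD1 and H3K4me2 peaks lay at the genes of the complex itself, as possible self-regulation.

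LSD1 removes methyl groups from mono- and dimethylated lysine 4 of histone H3, marks of promoters and enhancers in use. It acts on nucleosomes through a CoREST scaffold protein, which also holds the histone deacetylases HDAC1 and HDAC2, and DNA-binding repressors bring the complex to its sites. In the liver, as in most tissues, most of its subunits are broadly expressed, whereas GFI1 and GFI1B are best known from blood cells.

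The data were ChIP-seq peak lists from the liver of adult C57BL/6 mice, made by sequencing the DNA that an antibody pulls down with its target and calling as peaks the regions enriched over a control library. LSD1 was profiled in wild-type mice, and H3K4me2 in LSD1-LKO mice and in GFP controls. Each of the 3 lists joins 2 of the 6 ChIP libraries, and the remaining 6 of the 12 samples are their controls, given as without antibody in the labels and as IgG in the methods. By the study's methods both H3K4me2 groups carried LSD1 fl/fl alleles and were injected with AAV8 as young adults, the LSD1-LKO mice with TBG-Cre and the controls with TBG-GFP. The methods put such mice on a high-fat diet after the injection, while the labels and the ChIP-seq paragraph name no diet. The Tbg promoter is active in hepatocytes, so other liver cells were not targeted, and a list of H3K4me2 peaks cannot show that Kdm1a was deleted. Where the loxP sites lie within Kdm1a is not given in the sources used here.

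An entry of a list is a peak of the first-listed library with the peak of the second-listed library that it meets. The lists hold no reads and no depth, they do not tie a library to a replicate number, and the labels do not say beyond their names that the 2 libraries of a group came from separate mice. The second-listed H3K4me2 libraries had wider peaks in both groups. Their median width was 1161 bp against 648 bp in control, and in LSD1-LKO it was 1240 bp against 565 bp. In both groups only the first-listed libraries carry the word picard in their peak names. H3K4me2 marked the promoters of 8 of 8 hepatocyte markers in both lists, of 0 of 5 leukocyte markers and of 0 of 3 genes of other organs. Of 3 markers each, endothelium and stellate cells had 1 in control and 2 in LSD1-LKO, where Kdr and Lrat were added, and cholangiocytes had 2 in both lists. Whether such cells had a part in the results below was not tested. In whole tissue, fewer cells with a mark and less of the mark per cell cannot be told apart.

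LSD1 peaks lay at some scaffold and partner genes of the complex and not at others, and Kdm1a had none. In wild-type liver 4 of the 10 genes had an LSD1 peak in the window, beside 43.7% of all protein-coding genes, and these were Rcor1 with 2 peaks, Rcor3 with 1, Hdac1 with 1 and Phf21a with 3. At promoters, the 1 kb before and after each annotated transcription start site, 3 of the 10 had an LSD1 peak, beside 24.6% of all genes. Those 3 were Rcor3, Hdac1 and Phf21a, and each also had a control H3K4me2 promoter peak. Among the 7 members with that mark, 3 therefore had LSD1 at the promoter, beside 39.9% of the 13082 marked genes. The shares of the members were near the background. The windows were of unequal length, from 24.4 kb for Hmg20b to 292 kb for Phf21a, with a median of 47.0 kb against 37.4 kb over all genes. The median number of annotated start sites was 5.5 in the members and 3 over all genes.

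Phf21a carried the strongest LSD1 peak of the complex. Its product, BHC80, is a PHD-finger protein of the CoREST complex that binds histone H3 unmethylated at lysine 4. The peak at chr2:92183269-92184395 (mm10) had a fold enrichment over control of 9.12 by the first-listed library and 6.82 by the second-listed one. Its -log10 p was 18.3 and 15.7, and it ranked at the 99.7th percentile of the LSD1 list by the mean of these. It did not lie at the 5′ end of the gene model, which had no LSD1 peak within 37502 bp and no H3K4me2 peak within 33175 bp in control or 32864 bp in LSD1-LKO. It covered a start site of shorter transcripts on the plus strand, 91.0 kb further in. The 250 bases before that start site are shown because they lay under the LSD1 peak in both LSD1 libraries and under H3K4me2 peaks in all 4 H3K4me2 libraries. They are from GRCm38, chr2:92183856-92184105, plus strand, with capitals marking CpG dinucleotides.
Phf21a: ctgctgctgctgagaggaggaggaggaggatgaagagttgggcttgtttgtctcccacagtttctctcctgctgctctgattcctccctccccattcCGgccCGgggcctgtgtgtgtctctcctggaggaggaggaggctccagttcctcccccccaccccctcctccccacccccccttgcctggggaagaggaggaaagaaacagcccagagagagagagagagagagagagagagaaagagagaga
The stretch is rich in runs of purines and of pyrimidines and holds 2 CpGs, with 60.4% G and C. Over the 250 bases upstream of all annotated starts in the RefSeq table the medians were 6 CpGs and 52.4%.

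A lower LSD1 peak followed at chr2:92184743-92185327, also over a start site, with fold enrichments of 3.08 and 3.07 by first- and second-listed library and a rank at the 45.3rd percentile. The third, at chr2:92270073-92270355 in an intron, ranked at the 14.6th percentile and met no H3K4me2 peak of either list.

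Rcor3 had the second strong LSD1 promoter peak. The gene encodes CoREST3, a scaffold of the same family as CoREST1. The peak at chr1:192137616-192138704 covered the 5′ start site, with fold enrichments of 5.39 and 6.27 in the same order. Its -log10 p was 8.42 and 13.7 and its rank was at the 98.7th percentile. The bases upstream of the start in the RefSeq table on GRCm38, the last 22 of which lie in an exon of the GENCODE gene model, chr1:192138041-192138290, minus strand, are shown because the LSD1 peaks of both libraries covered all 250. Capitals again mark CpGs.
Rcor3: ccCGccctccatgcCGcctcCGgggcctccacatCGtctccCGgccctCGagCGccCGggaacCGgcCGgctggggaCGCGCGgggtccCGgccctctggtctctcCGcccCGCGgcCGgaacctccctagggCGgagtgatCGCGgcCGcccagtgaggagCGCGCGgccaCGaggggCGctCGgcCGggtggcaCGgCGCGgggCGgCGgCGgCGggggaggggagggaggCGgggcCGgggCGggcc
With 39 CpGs and 82.8% G and C, these 250 bases at Rcor3 differed in base composition from the stretch shown at Phf21a. Both stretches are parts of high-ranking LSD1 peaks, and the composition of the whole peaks was not measured.

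Hdac1 encodes a class I histone deacetylase shared by CoREST, NuRD and SIN3. Its LSD1 promoter peak, chr4:129542708-129543277, was weaker, with fold enrichments of 2.00 and 3.23. The -log10 p was 2.10 and 4.56, and the rank was at the 42.5th percentile.

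Rcor1, the gene of CoREST1, had its LSD1 peaks away from start sites. The intronic peak chr12:111047674-111047976 lay 8027 bp beyond the nearest start, with fold enrichments of 2.75 and 5.42 and a rank at the 89.5th percentile. The other, chr12:111114634-111114991, was in the last part of the gene, in an exon annotated as untranslated, and ranked at the 61.8th percentile. Its nearest coding start was that of Traf3, a signalling adaptor gene, at 51557 bp. Neither peak met an H3K4me2 peak in control or in LSD1-LKO.

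At Kdm1a itself the nearest LSD1 peak was 103865 bp from the start site. The window of Rcor2, which encodes CoREST2, had none either, nor did those of Hdac2, of Hmg20b, which encodes the HMG-box protein BRAF35, or of Gfi1 and Gfi1b, which encode zinc-finger repressors that bind LSD1 through their SNAG domain. Of these, Gfi1b had its closest LSD1 peak just outside the window, 10661 bp from its start site.

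**Figure D1:**
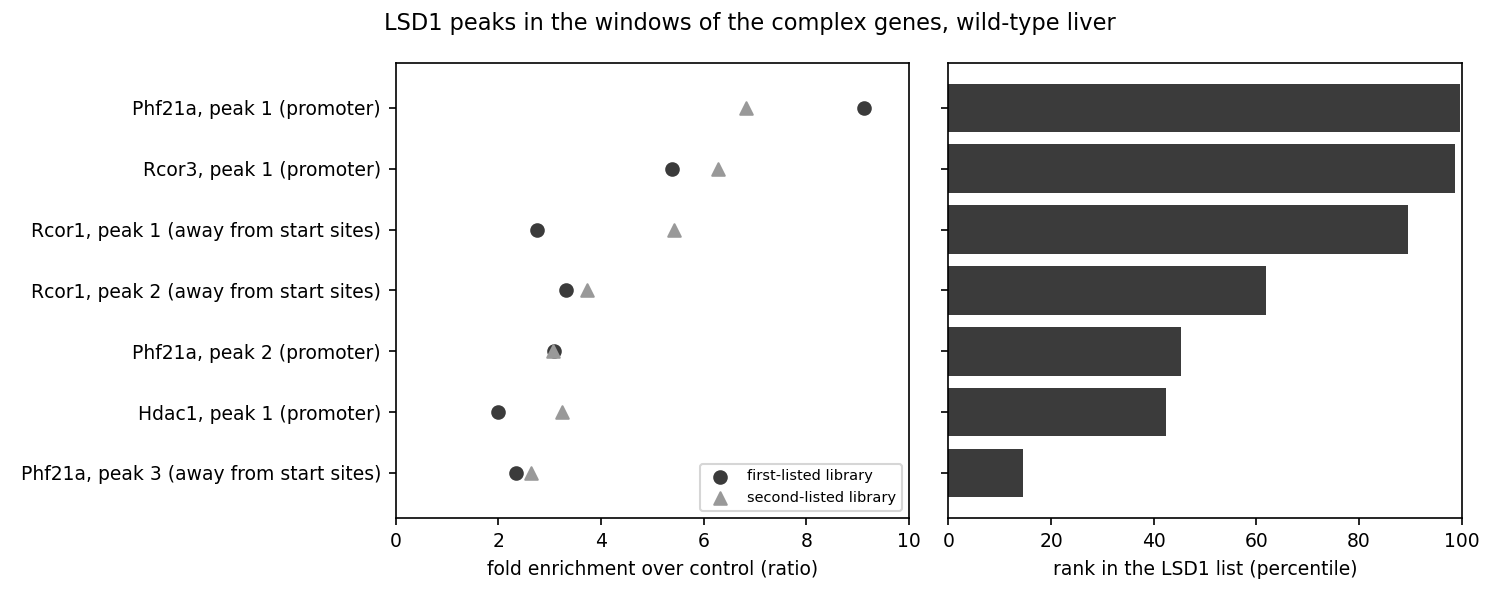
The 7 LSD1 peaks in the windows of the complex genes in wild-type liver. Left, fold enrichment over control as a ratio, with circles for the first-listed and triangles for the second-listed library; right, rank in the LSD1 list as a percentile, where Phf21a and Rcor3 stand at 99.7 and 98.7.

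Few of the 7 peaks passed a stricter MACS threshold. At a q-value of 0.05 or less in both libraries, and also at a p-value of 1e-05 or less, 2 peaks remained, 1 at Rcor3 and 1 at Phf21a. Over the whole LSD1 list, 77.3% of first-listed and 63.3% of second-listed peaks had a q-value above 0.05. Of the 7 peaks, 4 (57.1%, 95% Wilson interval 25.0 to 84.2, counting error only) overlapped a control H3K4me2 peak, beside 60.9% of the 11149 LSD1 peaks in the windows of all coding genes. All 4 were the promoter peaks.

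H3K4me2 also lay over those 4 LSD1 promoter peaks in LSD1-LKO liver. The Rcor3 peak, 1089 bp wide, was covered over 1089 bp in both control libraries and over 917 bp and 1089 bp in the LSD1-LKO libraries. At Phf21a the strong peak of 1127 bp was covered in full in both control libraries, over 767 bp in the first-listed LSD1-LKO library and in full in the second-listed one, while the weaker peak of 585 bp was covered in full in all 4. The Hdac1 peak of 570 bp was covered over 468 bp and 513 bp in control and over 328 bp and 348 bp in LSD1-LKO. Both LSD1-LKO values at this peak were thus below both control values, a state that was not counted over all LSD1 promoter peaks. Over whole promoters it was found at 17.2% of 13842 genes, and there the Hdac1 values of the groups overlapped. Averaged over the 4 peaks, the covered share was 95.5% and 97.5% in the control libraries and 77.5% and 90.3% in the LSD1-LKO libraries. Over all 5447 LSD1 promoter peaks the shares were 73.9% and 84.4% for control libraries against 67.7% and 85.5% for LSD1-LKO libraries.

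**Figure D2:**
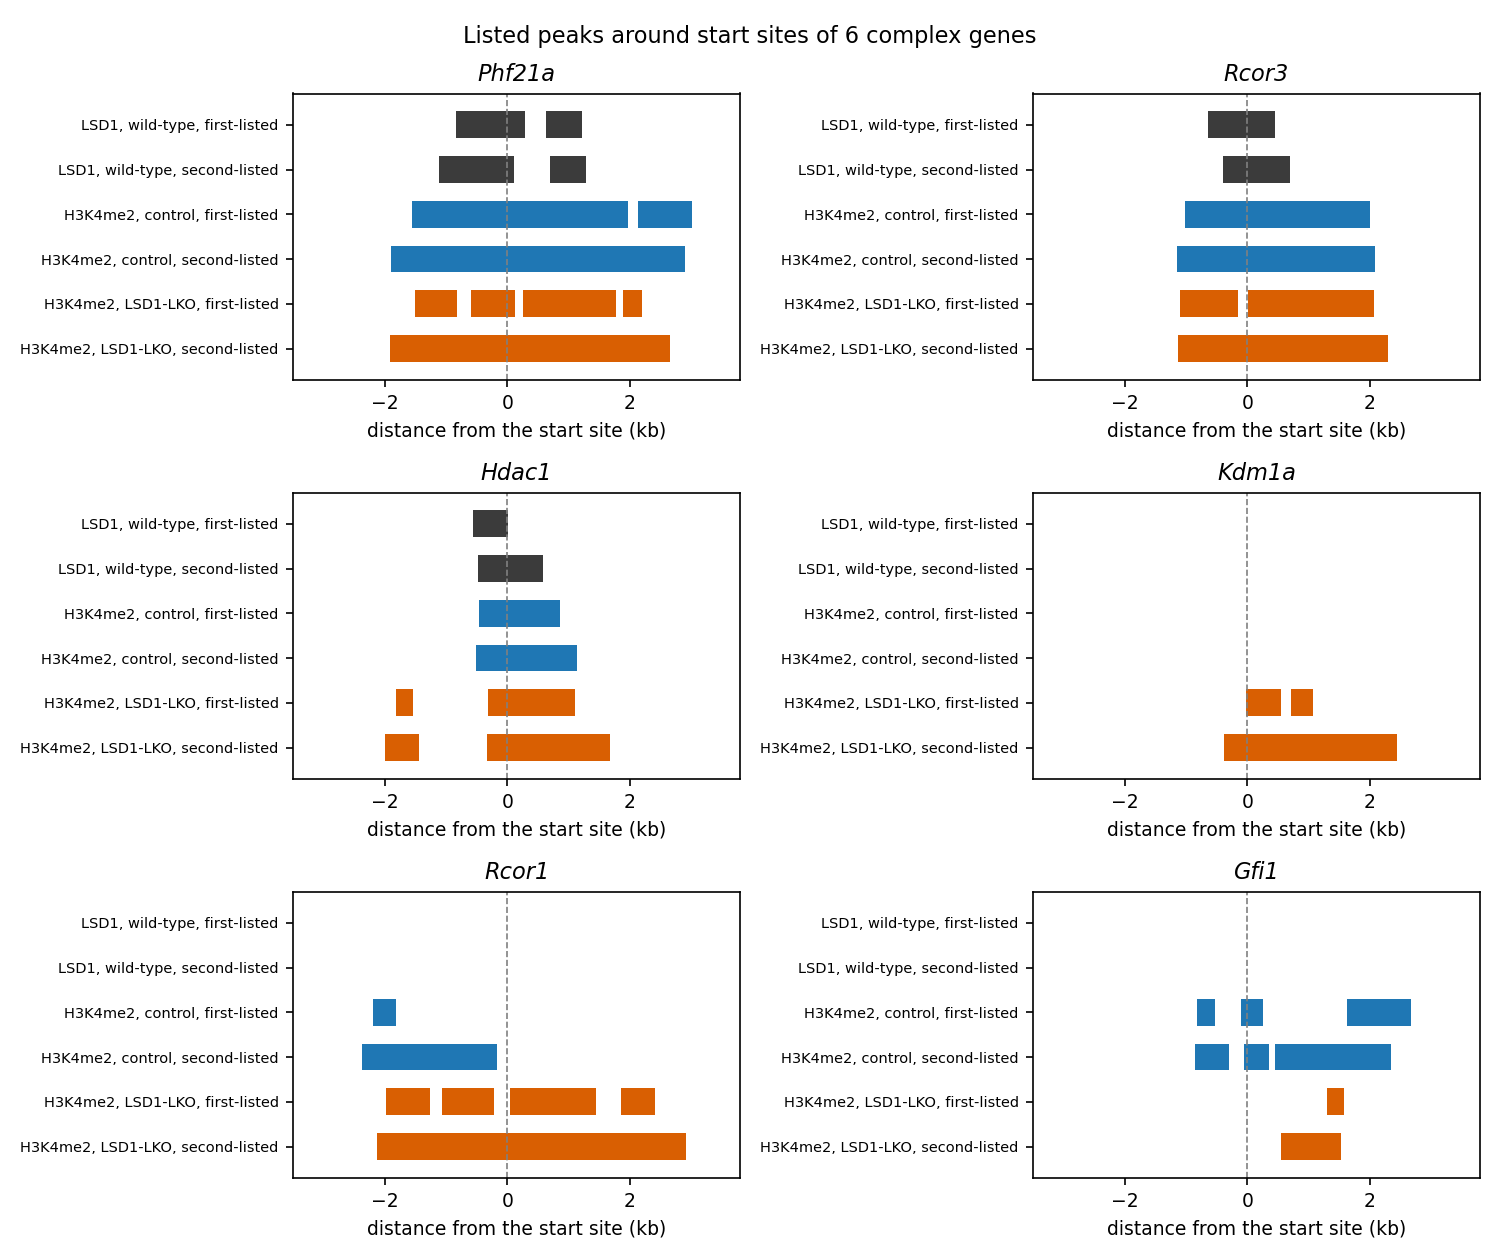
Listed peaks around start sites of 6 genes, by distance from the start site in kb with the direction of transcription to the right; the start is the 5′ end of the gene model, and for Phf21a the start under its strongest LSD1 peak. Each bar is a peak of LSD1 in wild-type liver (dark), H3K4me2 in control (blue) or H3K4me2 in LSD1-LKO (orange), 1 row per library; at Kdm1a, bars are seen in the LSD1-LKO rows alone.

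In control liver 7 of the 10 genes had an H3K4me2 promoter peak, beside 59.6% of all genes, and in LSD1-LKO 9 of the 10, beside 59.8%. Kdm1a and Rcor1 had one in the LSD1-LKO list and none in the control list, a state found at 3.17% of all genes. No member had one in control alone, which was the case at 3.03% of genes, and Gfi1b had none in either list. In their windows the genes had 26 of the 43891 control peaks and 36 of the 50675 LSD1-LKO peaks. In both lists some of these first-listed peaks met the same second-listed peak, so they are not all separate marked sites. For 6 of the 26 control peaks and 7 of the 36 LSD1-LKO peaks the nearest coding start belonged to a neighbour. The neighbours were Traf5 beside Rcor3, Marcksl1 beside Hdac1, Gipc3 and Mfsd12 beside Hmg20b, and Pex16 and Large2 beside Phf21a.

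Kdm1a, the catalytic subunit's own gene, had H3K4me2 peaks in the LSD1-LKO list and none in the control list. Its window was covered by H3K4me2 peaks over 0 bp in both control libraries, over 910 bp in the first-listed LSD1-LKO library and over 2840 bp in the second-listed one. Both LSD1-LKO libraries were thus above both control libraries. The LSD1-LKO peaks were chr4:136602175-136602739 over the start site, with a fold enrichment of 5.17 and a rank at the 90.4th percentile of the LSD1-LKO list, and chr4:136601657-136602001 in an intron, with 3.69 and the 81.7th percentile. Both met the same second-listed peak, chr4:136600273-136603112, with a fold enrichment of 6.17. Its -log10 p of 15.2 enters both ranks, beside 8.38 and 4.91 in the first-listed library. In the control list the nearest peak was 72785 bp from this start and a stretch of 163 kb around it held none. The neighbouring gene Luzp1 was marked at its promoter in both lists, with 1 peak in control at the 79.7th percentile and 2 in LSD1-LKO, the higher at the 94.6th. A list keeps only peaks called in both libraries, so a peak in 1 control library would not be seen. The 250 bases upstream of the Kdm1a start, chr4:136602724-136602973 on the minus strand of GRCm38 in the RefSeq table, are shown because H3K4me2 peaks covered them in full in the second-listed LSD1-LKO library, over 16 bases in the first-listed one and in neither control library.
Kdm1a: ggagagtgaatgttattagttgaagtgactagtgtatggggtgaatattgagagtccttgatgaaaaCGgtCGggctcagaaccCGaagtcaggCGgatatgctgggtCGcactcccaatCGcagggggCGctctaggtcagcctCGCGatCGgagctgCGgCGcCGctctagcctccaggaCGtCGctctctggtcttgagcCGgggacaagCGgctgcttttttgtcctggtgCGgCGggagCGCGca
There were 21 CpGs, in capitals, and 59.2% G and C.

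Rcor1 differed in extent more than in presence. At its promoter H3K4me2 peaks covered 0 bp and 830 bp in the control libraries and 2182 bp and 2448 bp in the LSD1-LKO libraries. The lowest LSD1-LKO value was above the highest control value. In control the first-listed peak, chr12:111037145-111037534, ended short of the promoter, while its second-listed partner, chr12:111036975-111039180, reached into it. In LSD1-LKO 4 first-listed peaks lay on either side of the start between chr12:111037373 and chr12:111041757, with ranks from the 94.1st to the 99.2nd percentile, and met 1 second-listed peak of 5046 bp. The -log10 p of that peak, 23.1, enters all 4 ranks. In the first-listed library the lowest-ranked of the 4 had a fold enrichment of 2.49 and a -log10 q of 0.47. With second-listed intervals, or with a promoter of 2 kb on either side, Rcor1 also had a control promoter peak, whereas Kdm1a had none under any setting run. The second-listed libraries covered 64 bases of the stretch shown here in control and 250 in LSD1-LKO, and the first-listed ones 0 and 15. Shown are the bases upstream of the RefSeq start of Rcor1, chr12:111039117-111039366, plus strand, the last 16 of which are exonic in the GENCODE model.
Rcor1: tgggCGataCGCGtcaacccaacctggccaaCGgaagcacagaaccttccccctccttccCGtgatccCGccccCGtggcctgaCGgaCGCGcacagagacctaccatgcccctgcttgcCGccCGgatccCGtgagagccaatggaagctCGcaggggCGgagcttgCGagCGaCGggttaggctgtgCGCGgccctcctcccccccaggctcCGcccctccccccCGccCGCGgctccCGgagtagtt
They hold 25 CpGs and 70.4% G and C. Over the whole window Rcor1 had 2151 bp and 4746 bp in control and 5637 bp and 7471 bp in LSD1-LKO.

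The other scaffold genes had H3K4me2 promoter peaks in every library. Rcor2 was covered over 1761 bp and 2229 bp of its promoter in control and over 1765 bp and 2029 bp in LSD1-LKO, values that overlapped. Its top promoter peak ranked at the 94.6th and 99.8th percentile of the control libraries and at the 94.5th and 97.1st of the LSD1-LKO libraries. Rcor3 promoters had 2403 bp in both control libraries and 2231 bp and 2403 bp in LSD1-LKO. In the first-listed LSD1-LKO library the Rcor3 mark was split, into chr1:192135994-192138045 and chr1:192138218-192139170, on either side of a gap that lay within the LSD1 peak of wild-type liver, and in the other 3 libraries it was 1 peak.

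Of the deacetylase genes, Hdac1 promoters had 1328 bp and 1530 bp in control and 1345 bp and 1365 bp in LSD1-LKO, which overlapped. Hdac2 promoters had 2027 bp and 1900 bp in control and 1213 bp and 1705 bp in LSD1-LKO, with no overlap. At Hdac2 the control peak chr10:36973414-36975627 covered the start site, and the first-listed LSD1-LKO peaks chr10:36973801-36974475 and chr10:36975033-36976258 lay on either side of it. The second-listed LSD1-LKO peak covered the start again, and the rank of the Hdac2 promoter peak was the 82.2nd and 72.6th percentile in control, and it was the 88.3rd and 98.7th in LSD1-LKO. Ranks are percentiles within lists of unequal length, with 43891 entries in control and 50675 in LSD1-LKO, so ranks of the groups are given side by side and not compared.

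Among the accessory subunits, Hmg20b promoters had 1358 bp and 2481 bp in control and 1349 bp and 3345 bp in LSD1-LKO, where the spread within a group was larger than the difference between groups. Phf21a promoters had 3862 bp and 3903 bp in control and 2728 bp and 3662 bp in LSD1-LKO. Both LSD1-LKO values at Phf21a were below both control values. Here too the first-listed LSD1-LKO library held 4 short promoter peaks where control held 2, and the second-listed library of each group held 1. Over the whole Phf21a window the values overlapped, at 4872 bp and 5117 bp in control and 4485 bp and 6239 bp in LSD1-LKO.

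Of the recruiting repressors, Gfi1 had weak peaks that covered less in LSD1-LKO. Its promoters were covered over 1704 bp and 2854 bp in control and over 277 bp and 985 bp in LSD1-LKO, with no overlap, as also over the window with 2199 bp and 3560 bp against 650 bp and 1465 bp. The 3 control promoter peaks of Gfi1 ranked at the 39.0th, 18.6th and 4.6th percentile and the 1 LSD1-LKO peak at the 32.1st. Gfi1b had no promoter peak, and its window was covered over 370 bp and 507 bp in control and over 1150 bp and 1836 bp in LSD1-LKO. The LSD1-LKO list there held an intronic peak, chr2:28618261-28619060, at the 41.9th percentile, where the control list had none.

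**Figure D3:**
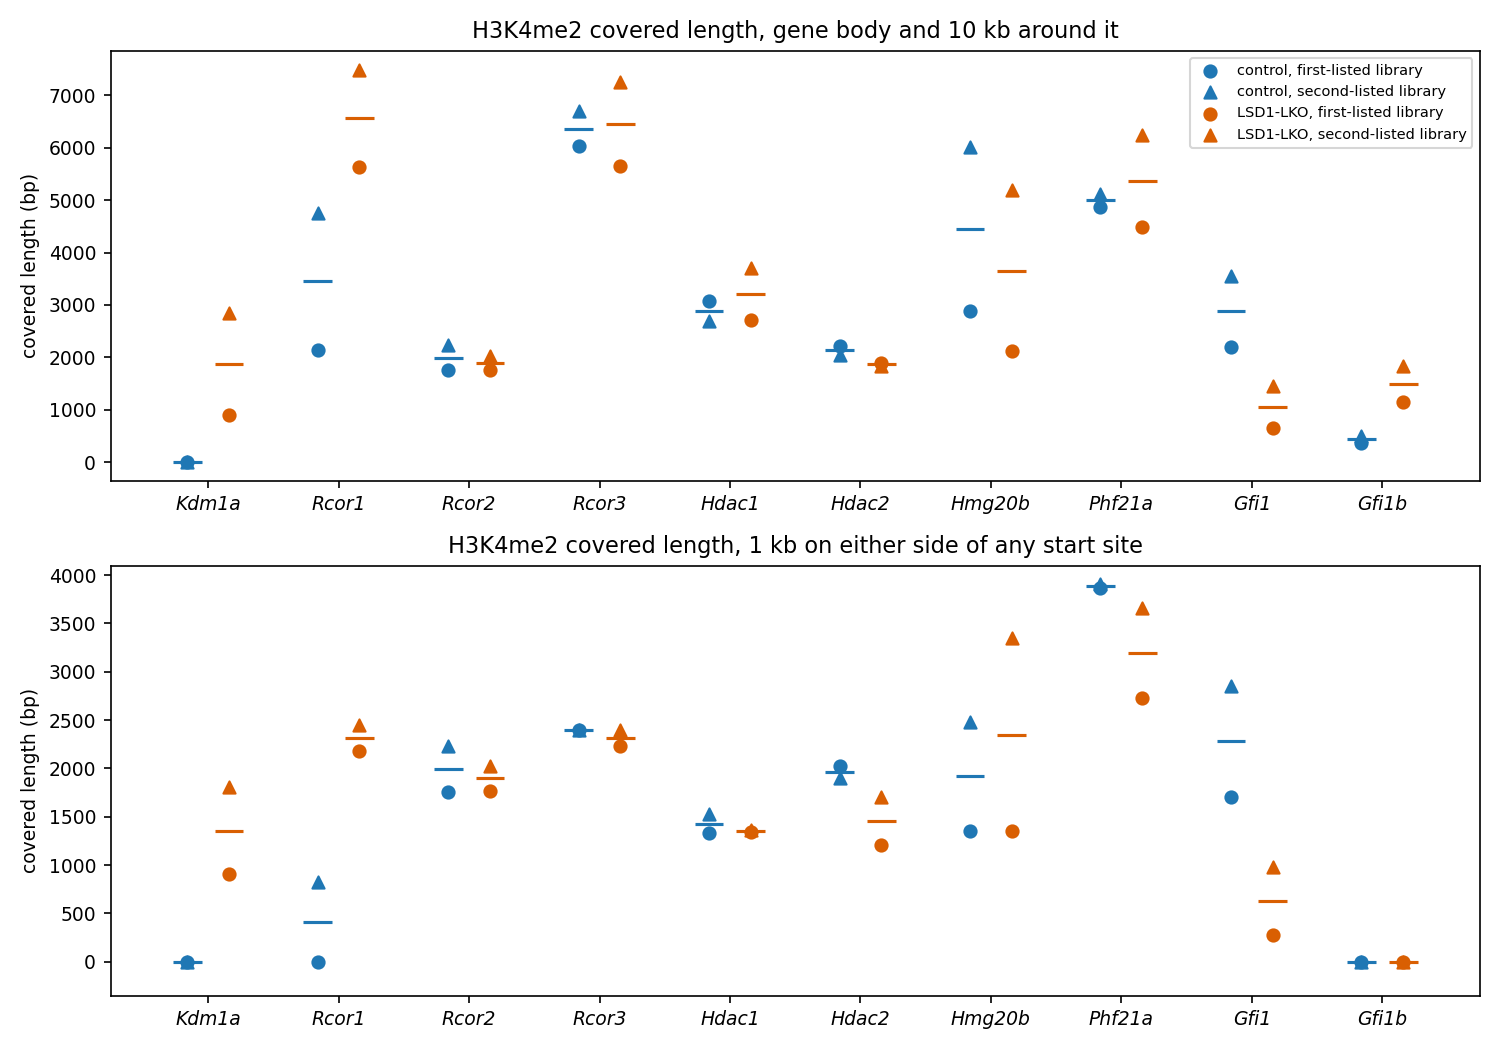
H3K4me2 covered length in bp per library for the 10 genes, over the gene window (top) and over the promoters (bottom), in control (blue) and LSD1-LKO (orange), with circles for first-listed and triangles for second-listed libraries and a line at the mean of the 2. Kdm1a and Rcor1 were higher in both LSD1-LKO libraries in both panels, and Gfi1 and Hdac2 lower.

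Over the windows both LSD1-LKO libraries were above both control libraries at 3 of the 10 genes, Kdm1a, Rcor1 and Gfi1b, beside 18.2% of the 15954 genes covered in any library. They were below at 2, Hdac2 and Gfi1, beside 15.5%. Over promoters they were above at 2 of the 9 covered members, Kdm1a and Rcor1, beside 15.0% of 13842 genes, and below at 3, Hdac2, Phf21a and Gfi1, beside 17.2%. With 2 libraries against 2 the smallest p that an exact two-sided permutation test can give is 0.333, which each of these members had, so none could pass 0.05. The mean window difference was 1875 bp at Kdm1a (0 ± 0 against 1875 ± 1365, SD, n = 2 each) and 3106 bp at Rcor1 (3449 ± 1835 against 6554 ± 1297), and at Gfi1 the mean fell by 1822 bp (2880 ± 962 against 1058 ± 576). The lists keep only peaks that meet in both libraries, so the 2 values of a group are not independent, though the SD and the permutation test take them so. The 0 ± 0 at Kdm1a is therefore no measure of agreement between control libraries. By first-listed libraries the median change over the 10 windows was -340.5 bp, with 6 genes lower and 4 higher, and over all covered genes it was -144 bp. By second-listed libraries it was 791.5 bp, with 4 lower and 6 higher, and over all genes 261 bp. Over windows the direction of the median thus turned with the library read, as it did over all genes. At promoters the median change of the members was below 0 by either library. With first-listed libraries it was -9 bp over the 9 covered members, with 5 lower and 4 higher, beside -114 bp over all covered genes. With second-listed ones it was -82.5 bp over all 10, with 5 lower and 3 higher, beside 25 bp. The shares of all genes that were lower or higher are not given here, for windows or promoters.

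**Figure D4:**
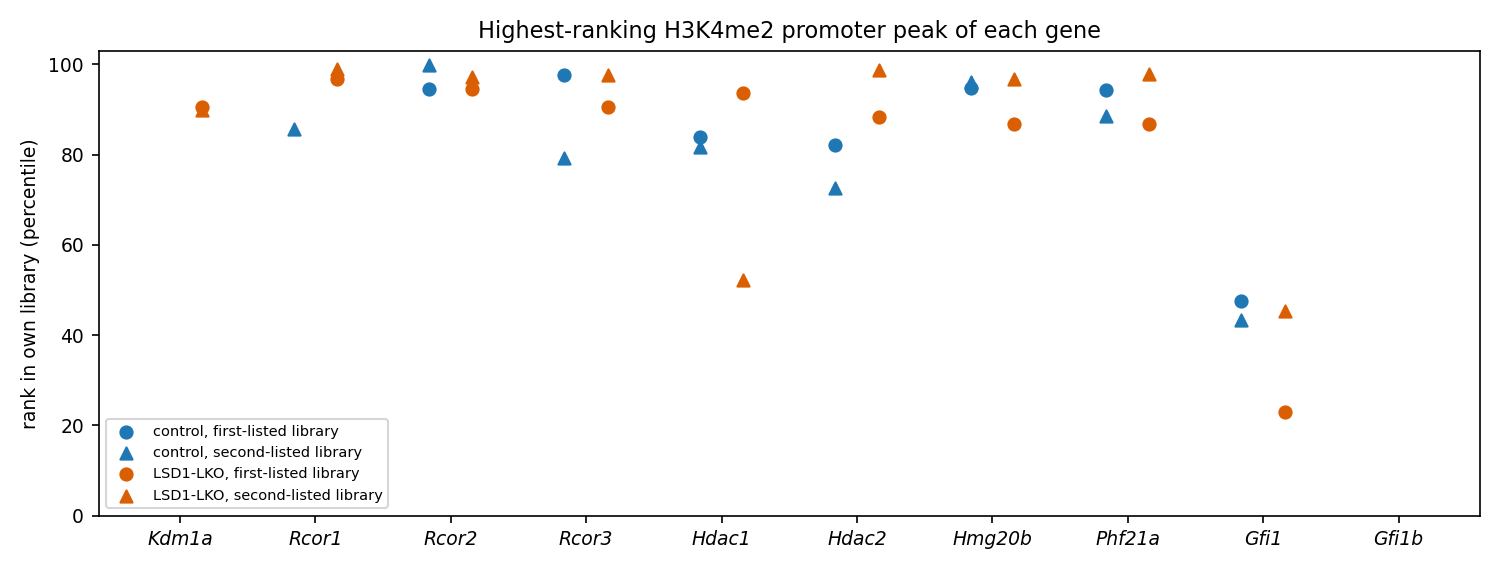
Highest rank, as a percentile within its own library, among the H3K4me2 promoter peaks of each gene in control (blue) and LSD1-LKO (orange), with circles for first-listed and triangles for second-listed libraries; genes without a promoter peak in a library have no point. Gfi1 lies below the 50th percentile in all 4 libraries, each read within itself, since the libraries hold unequal numbers of peaks.

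In the promoter ranks, Kdm1a stood at the 90.6th and 89.8th percentile of the LSD1-LKO libraries, within the range of Hmg20b at the 86.7th and 96.8th. Rcor1 was at the 85.6th percentile in the second-listed control library and at the 96.8th and 98.9th in LSD1-LKO. The ranks of Hdac1 spread from the 52.2nd to the 93.6th within LSD1-LKO and were 83.8 and 81.7 in control.

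Letters of 5 motifs were looked for on both strands, AAATCAC for GFI1, CCGGAAGT for GABP and other ETS factors, CAAAGGTCA for ERR, GCGCATGC for the NRF1 core and CAGGTG for the E-box of SNAI1. No motif contained another. In the 300 bp at the centre of the 4 LSD1 promoter peaks of the complex genes none was found. Over all 5447 LSD1 promoter peaks the shares with a match were 1.62% for GFI1, 4.52% for GABP, 0.606% for ERR, 3.05% for NRF1 and 20.8% for the E-box. Of the 9 members in the RefSeq promoter table, all but Hdac1, the 250 bases upstream held the E-box at 1, Gfi1, beside 17.2% of 32851 promoters, and no other motif, beside 2.75%, 2.88%, 0.426% and 2.26% in the order above.

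Among 33 further genes of the same corepressor network, 17 had an LSD1 promoter peak, beside 24.6% of all genes. Among all genes with a control H3K4me2 promoter peak, as 32 of the 33 had, the share was 39.9%. The 17 include Ctbp1, which had no such control peak, so they are not all from that set. An LSD1 peak lay in the window of 22, beside 43.7% of all genes. Window lengths and numbers of start sites are not given for the 33, and these bear on such counts. The list was chosen with earlier results of these data known. The promoter peaks were at 7 of 10 other CoREST-associated factors, 3 of 7 recruiting DNA-binding factors, 5 of 11 NuRD genes, 2 of 4 SIN3 genes and 0 of 1 for Kdm1b, the LSD1 homolog. The highest ranks were those of Rreb1, a zinc-finger factor, at the 98.8th percentile (fold enrichment 3.17 and 7.98), and Nr2c2, an orphan nuclear receptor, at the 98.0th (5.09 and 6.41). After these came its relative Nr2c1 at the 91.8th (3.82 and 5.80), Rbbp4, a histone-binding WD40 protein, at the 91.0th (2.50 and 5.45), and L3mbtl3, an MBT-domain reader of methylated lysine, at the 89.9th (5.56 and 3.85). H3K4me2 promoter peaks were listed for 32 of the 33 in control, beside 59.6% of all genes, and for all 33 in LSD1-LKO, beside 59.8%. The exception was Ctbp1, a corepressor that joins the CoREST complex, which was covered over 0 bp in control but over 1580 bp in LSD1-LKO by first-listed libraries. By the same libraries promoter coverage was lower in LSD1-LKO at 22 of the 33 and higher at 11, with a median of -123 bp, near the -114 bp over all genes. The share of all genes with lower coverage is not given here. By second-listed libraries the median over all genes was 25 bp, and the 33 are given by first-listed libraries alone.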

How the data were processed

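The authors mapped reads to mm10 with Bowtie2, called narrow peaks per library with MACS2 against the control library and joined the 2 libraries of a group with bedtools 2.25.0 intersect, without pooling. Fold enrichment in the deposited lists is the authors' MACS ratio of ChIP over local control, and the p-values and q-values, each as -log10, are also their MACS output. The methods name a p-value of 0.01, whereas listed p-values reach about 0.05. A further 12 columns of scores and summits were not used.

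Here, first-listed intervals were set against GENCODE mouse release 21 with Python 3.11.15, numpy 2.4.6, pandas 2.3.3, scipy 1.17.1 and matplotlib 3.10.9, with an overlap of at least 1 bp. All start sites of coding genes were used. Covered length is the number of bases under peaks of 1 library. Ranks are percentiles within a list by the mean -log10 p of both libraries, or within 1 library, and scores were not compared between lists. The code was tested on simulated intervals against bedtools 2.31.1. List coordinates were checked against GRCm38. Of the named genes, the 10 members and their peaks' nearest neighbours are all given, and of 33 wider genes the 5 with the highest LSD1 promoter rank and those marked in 1 list only. Luzp1 was chosen after its values were seen. Members, lists and alternatives were chosen with earlier results of these data known. The alternatives were other windows, promoter widths, start sites, thresholds, overlaps and libraries.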

Additional observations from a re-analysis of the deposited data

How the results depend on the processing

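Of 82 alternatives to the 9 summary values, 72 stayed within the limits set, which were 1.5 times for a count, the Wilson interval for the share of overlapping peaks and, for the median change, the SD of 817 bp between values from the 4 pairs of 1 control and 1 LSD1-LKO library. Another 7 moved and 3 reversed. Those limits were wide: within them the median change was 0 bp at a p-value of 1e-05 or less and -162.5 bp with the intersection of both libraries. Members with less window coverage numbered 4 in place of 6 over the gene body, at that p-value and with the second-listed library alone. The median change, -340.5 bp as reported, reversed to 73 bp over the gene body alone, to 791.5 bp with the second-listed library alone and to 466 bp with the union of both libraries, and with the union 3 members had less window coverage in place of 6. At a p-value of 1e-05 or less, and likewise at a q-value of 0.05 or less, members with an LSD1 window peak numbered 2, LSD1 peaks 2, and their overlap with control H3K4me2 was 100%. These thresholds keep fewer peaks by construction, and for the others the cause was not tested. With 1 start site per gene Phf21a lost its LSD1 promoter peak, which left Rcor3 and Hdac1. At the q-value of 0.05 H3K4me2 promoter peaks were listed for Gfi1 in control alone, and for Kdm1a and Rcor1 in LSD1-LKO alone. No paired analysis was possible because the columns of the lists carry no replicate numbers. Depth is unknown, so a missing peak does not show that the mark was absent.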
